A study of Rattus norvegicus with 8 samples.

Results

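The fibroblast growth factor (FGF) family in the rat heart was examined through 9 FGF genes and 1 receptor gene, Fgf1, Fgf2, Fgf7, Fgf9, Fgf10, Fgf12, Fgf13, Fgf16, Fgf18 and Fgfr1. Every probe set annotated to these 10 gene symbols was included, which gave 16 of the 31042 probe sets on the array and 10 of the 14217 genes that could be named. The atrial samples were 4 pools of left atrial appendage and the ventricular samples were 4 pools of left ventricular free wall, each hybridized to its own array. Both tissues came from 13 donor rats, which were normal, untreated Sprague Dawley males weighing 225 to 275 g. The labels give the tissue as atrium or ventricle, the left side and the region rest on the study's methods, and the number of animals in each pool is not given in the sources used here. The pools were drawn from one collection of tissue, so the p-values measure the spread between these pools. Whole tissue holds cardiocytes, the heart muscle cells, together with fibroblasts, vessel cells and other cells.

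Most FGFs are secreted proteins that bind receptor tyrosine kinases on nearby cells, with heparan sulfate chains of the cell surface as a required partner. The bound receptors signal through adaptor proteins to the RAS-MAPK cascade, which in turn raises its own inhibitors. A separate branch of the family, the FGF homologous factors, is not secreted and instead binds the cytoplasmic end of voltage-gated sodium channels, where it alters their inactivation. In mice, FGFs from the epicardium and endocardium drive growth of the embryonic heart muscle.

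The largest differences in the family lay in the secreted ligands Fgf16 and Fgf9, which were lower in the atria, and in the intracellular factor Fgf12, which was higher there. Values are log2 signal intensities, so that a difference of 1 is a 2 fold change, and each difference is the atrial mean minus the ventricular mean. At an adjusted p under 0.05 (limma, Benjamini-Hochberg over all probe sets), the atria exceeded the ventricles at 4 of the 16 probe sets and fell below them at 5. Over all probe sets 18.6% were higher and 20.1% were lower at that threshold, so the numbers of calls alone did not set the family apart. The study's thresholds were applied to the limma fit, as an adjusted p under 0.0001 and a fold of at least 1.8. At these, the 2 Fgf12 probe sets higher in the atria stood against 2.64% of all probe sets, and 1 of them passed without ventricular pool 2. The 3 probe sets lower in the atria, 2 of Fgf9 and 1 of Fgf16, stood against 1.87%. Arrays of the tissues did not overlap at 9 of the 16 probe sets, against 37.0% of all probe sets. The median difference was -0.07 over the 16 probe sets and -0.05 over all 31042. With 1 probe set per gene, the one with the highest mean, 3 of the 10 genes were higher and 4 were lower in the atria, where 22.5% of all genes were higher and 22.5% were lower.

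**Figure D1:**
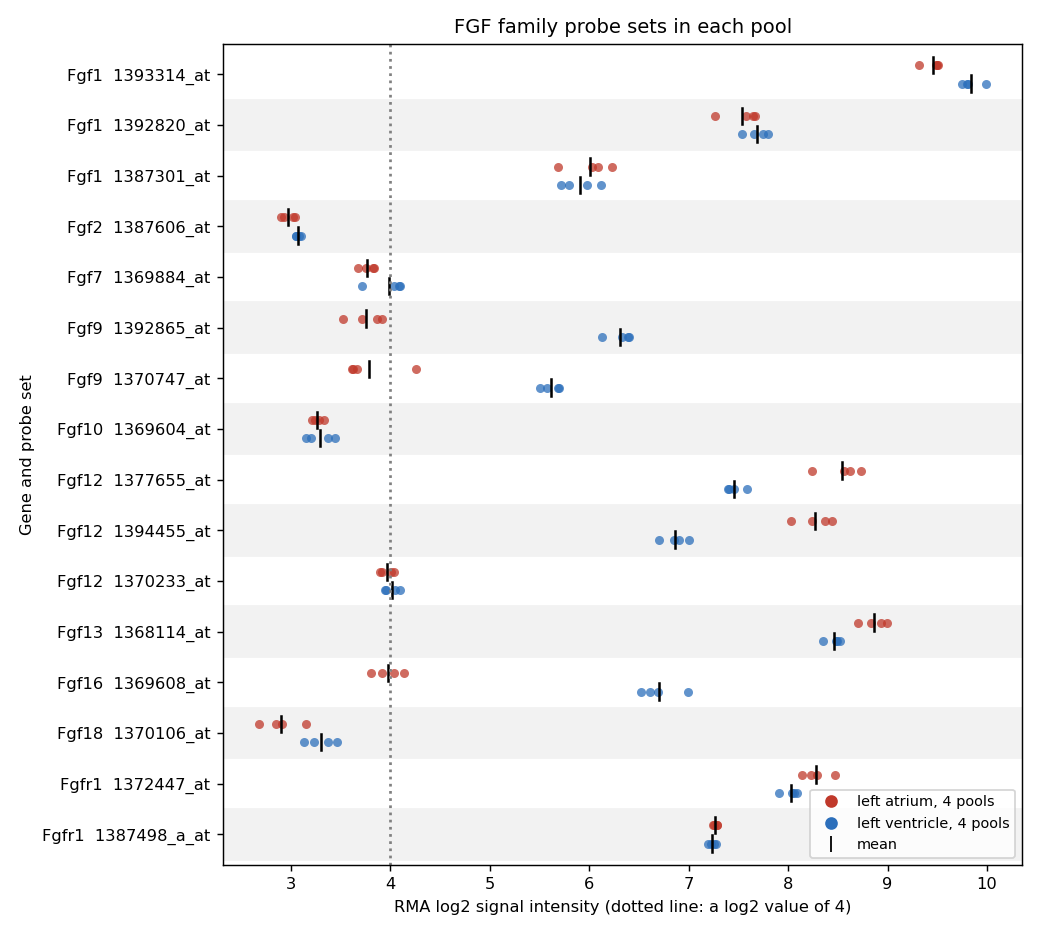
RMA log2 signal intensity (horizontal axis) of each FGF family probe set (vertical axis) in the 4 atrial pools (red, upper row of each band) and the 4 ventricular pools (blue, lower row), with black bars for the means and a dotted line at a log2 value of 4. The Fgf9 and Fgf16 atrial points lie around the dotted line while their ventricular points lie between 5.50 and 6.99, and 2 of the 3 Fgf12 probe sets show the atria above the ventricles.

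The low end of the scale matters for this family. Over the array, 37.8% of probe sets had a mean under 4, and values below it were read as too near the low end for the size of a change. A fold against a mean under 4 is therefore given as a lower bound, and no fold is given where both tissues were under it.

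Fgf16 belongs with Fgf9 and Fgf20 to one subfamily of secreted ligands and is best known for its presence in the heart. Its probe set, 1369608_at, read 3.80, 4.04, 3.92 and 4.14 in the atrial pools, against 6.61, 6.99, 6.52 and 6.69 in the ventricular pools. Every ventricular pool was above every atrial pool by more than 2 log2 units. The difference was -2.73 ± 0.11 (SE, n = 4 pools each) with a limma adjusted p of 2.8e-08, at least 6.63 fold lower in the atria. In bulk tissue, fewer cells of a type and less RNA per cell cannot be told apart, here or below.

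Fgf9, a ligand that in mice comes from the epicardium and endocardium of the embryo, has 2 probe sets. At 1392865_at the atrial pools read 3.86, 3.52, 3.71 and 3.92, against 6.39, 6.33, 6.40 and 6.13 in the ventricular pools. At 1370747_at the atrial pools read 3.66, 3.61, 3.62 and 4.26, against 5.70, 5.57, 5.69 and 5.50 in the ventricular pools. The tissues did not overlap at either probe set. The difference was -2.56 ± 0.10 (SE, n = 4 pools each, limma adjusted p = 2.1e-08) at 1392865_at, at least 5.88 fold lower in the atria. At 1370747_at it was -1.83 ± 0.13 (SE, n = 4 pools each, limma adjusted p = 2.4e-06), at least 3.55 fold lower in the atria. Both Fgf9 probe sets gave the same direction. At 1370747_at atrial pool 4 stood above the other atrial pools, and without it the difference was -1.98. With atrial means at the low end, both differences are lower bounds and their sizes were not ranked.

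Fgf16 and Fgf9 are shown with the sequence around their starts because they were the FGF genes with the largest differences and shared a direction. The sequences are the RefSeq windows of 250 bases before and 50 bases after the annotated start on the rat build GRCr8. Each was searched on both strands for the TATA box (TATAAA), the T-box core (AGGTGT), the M-CAT element (GGAATG), the GATA site (AGATAA), the E box (CANNTG) and the MEF2 site. Capitals mark every match other than E boxes.
Fgf16, chrX:74882745-74883044, plus strand: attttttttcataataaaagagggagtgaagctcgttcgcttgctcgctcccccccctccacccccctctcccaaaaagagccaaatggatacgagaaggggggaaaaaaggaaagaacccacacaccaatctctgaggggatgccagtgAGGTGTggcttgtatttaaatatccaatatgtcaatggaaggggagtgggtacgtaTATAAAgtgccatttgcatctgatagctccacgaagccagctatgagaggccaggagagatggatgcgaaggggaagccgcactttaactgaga
Fgf9, chr15:36327108-36327407, plus strand: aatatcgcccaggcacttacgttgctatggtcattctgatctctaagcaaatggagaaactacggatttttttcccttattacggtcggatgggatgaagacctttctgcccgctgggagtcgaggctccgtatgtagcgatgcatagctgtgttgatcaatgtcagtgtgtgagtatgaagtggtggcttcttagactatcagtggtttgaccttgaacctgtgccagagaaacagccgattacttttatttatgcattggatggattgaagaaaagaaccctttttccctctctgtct
The Fgf16 window held a TATA box from -44 to -39 and a T-box core from -100 to -95, counted from the start, and 3 E boxes. The Fgf9 window held 1 E box and no other match. Of all 33469 RefSeq windows of this length, 14.2% held a TATA box, 13.6% a T-box core and 72.1% an E box. The M-CAT element was in 14.2%, the GATA site in 11.6% and the MEF2 site in 3.29%. A match describes the letters of the window only, and the start that these transcripts use in the heart was not measured.

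Fgf20, the other member of that subfamily, read 2.74, 2.66, 2.77 and 2.92 in the atrial pools, against 3.07, 2.87, 2.94 and 2.64 in the ventricular pools. These values sat near the low end in both tissues, and the difference of -0.11 was not called (limma adjusted p = 0.4). The differences of Fgf16 and Fgf9 were set against each other by taking, in each array, one probe set's value minus the other's. The gap was -0.17 and the exact permutation test did not separate them (two-sided p = 0.343, adjusted p = 0.343 over 8 such pairs, n = 4 pools each). With atrial values at the low end for both genes, this comparison could not resolve a further gap.

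Fgf1, or acidic FGF, binds every FGF receptor and lacks a classical secretion signal. At its brightest probe set, 1393314_at, the atrial pools read 9.49, 9.50, 9.51 and 9.32, against 9.81, 9.99, 9.75 and 9.80 in the ventricular pools. All 4 atrial pools were below all 4 ventricular pools. The difference was -0.38 ± 0.07 (SE, n = 4 pools each, limma adjusted p = 0.002), 1.3 fold lower in the atria. The other probe sets of Fgf1 did not show this. At 1392820_at the atrial pools read 7.65, 7.67, 7.58 and 7.26, against 7.66, 7.75, 7.54 and 7.80 in the ventricular pools, with a difference of -0.15 (limma adjusted p = 0.26). At 1387301_at the atrial pools read 6.09, 6.23, 6.03 and 5.69, against 5.98, 6.12, 5.72 and 5.80 in the ventricular pools, with a difference of 0.11 (limma adjusted p = 0.51). The tissues overlapped at both. The brightest probe set differed from 1387301_at in its tissue difference by -0.49 (exact permutation test, two-sided, adjusted p = 0.0457) and from 1392820_at by -0.23 (adjusted p = 0.0653 in the same test). The first of these gaps was -0.47 without atrial pool 1 and -0.55 without atrial pool 4. Neither was called (3 against 4 pools, adjusted p = 0.0571 in each case, same exact test). The adjustment runs over 8 pairs of probe sets, some with values at the low end. A call therefore depends on the other pairs as well as on the gap itself. Averaging the 3 probe sets gave a Fgf1 difference of -0.14 that was not called (limma adjusted p = 0.23).

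Fgf2, or basic FGF, is the closest relative of Fgf1. Its single probe set, 1387606_at, read 2.90, 2.93, 3.04 and 3.02 in the atrial pools, against 3.05, 3.08, 3.05 and 3.10 in the ventricular pools. The atrial pools were all below the ventricular ones, but by a difference of -0.10 that was not called (limma adjusted p = 0.2). Both tissues lay at the low end of the scale, so these values carried little about Fgf2 in either tissue.

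Fgf7 and Fgf10 are ligands of one subfamily that mesenchymal cells secrete toward epithelial cells, acting through a splice form of the receptor Fgfr2. Fgf7 (1369884_at) read 3.82, 3.75, 3.67 and 3.83 in the atrial pools, against 4.09, 4.10, 4.04 and 3.71 in the ventricular pools. One ventricular pool fell among the atrial ones, and the difference of -0.22 was not called (limma adjusted p = 0.083). Without ventricular pool 4 it was -0.31 and was called (limma adjusted p = 0.0064). Fgf10 (1369604_at) read 3.21, 3.28, 3.24 and 3.33 in the atrial pools, against 3.15, 3.37, 3.44 and 3.20 in the ventricular pools. The pools overlapped fully, with a difference of -0.03 (limma adjusted p = 0.82). Both genes had means under 4 in both tissues, so these values carried little about either gene.

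Fgf18, a ligand known chiefly from cartilage, bone and lung, was the dimmest called member. Its probe set, 1370106_at, read 2.85, 3.15, 2.68 and 2.91 in the atrial pools, against 3.46, 3.23, 3.13 and 3.37 in the ventricular pools. Atrial pool 2 lay above ventricular pool 3, so the tissues overlapped. The difference of -0.39 ± 0.11 (SE, n = 4 pools each) was called lower (limma adjusted p = 0.013), but both means were under 4 and no fold is given.

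**Figure D2:**
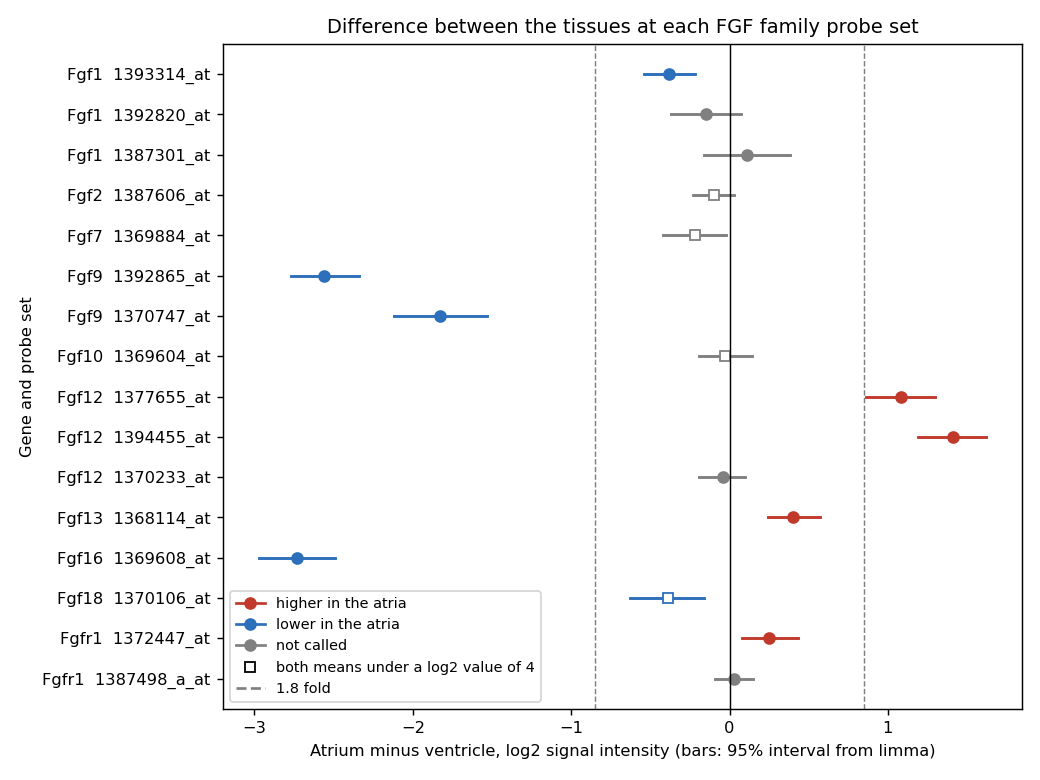
Atrial mean minus ventricular mean in log2 signal intensity (horizontal axis) at each FGF family probe set (vertical axis), with 95% intervals from limma as bars, red for higher in the atria, blue for lower and grey for not called. Open squares mark probe sets with both means under a log2 value of 4, and dashed lines mark 1.8 fold, beyond which lie Fgf16, both Fgf9 probe sets and 2 of the 3 Fgf12 probe sets.

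Of the intracellular factors, Fgf12 and Fgf13 were higher in the atria. Fgf12, a sodium channel binding factor present in heart muscle and neurons, has 3 probe sets. At 1377655_at the atrial pools read 8.56, 8.62, 8.73 and 8.24, against 7.59, 7.40, 7.45 and 7.39 in the ventricular pools. At 1394455_at the atrial pools read 8.44, 8.24, 8.37 and 8.03, against 6.90, 6.85, 7.00 and 6.70 in the ventricular pools. The atrial pools were above the ventricular pools throughout at both probe sets, with atrial pool 4 the lowest of the 4. The difference was 1.08 ± 0.10 (SE, n = 4 pools each, limma adjusted p = 1.3e-05), or 2.11 fold, at 1377655_at. It was 1.41 ± 0.10 (SE, n = 4 pools each, limma adjusted p = 1.5e-06), or 2.65 fold, at 1394455_at.

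The third Fgf12 probe set, 1370233_at, read 3.90, 4.04, 3.92 and 4.01 in the atrial pools, against 4.05, 3.96, 4.10 and 3.95 in the ventricular pools. It stayed near the low end and its difference of -0.04 was not called (limma adjusted p = 0.61). At that level it could not show a tissue difference, and it was not ranked against the others. The tissue difference at 1377655_at minus that at 1394455_at was -0.33 and passed the exact permutation test (two-sided, adjusted p = 0.0457 over the 8 pairs, n = 4 pools each), at the smallest unadjusted p of 0.0286 that 4 against 4 pools allow. This gap was -0.28 without atrial pool 1 (adjusted p = 0.0914, exact test) and -0.31 without atrial pool 4 (0.0762), and was then not called. RefSeq lists more than one start for Fgf12, and which transcripts each probe set reads was not examined.

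The windows around both Fgf12 starts are given because Fgf12 was the member with the largest difference toward the atria and RefSeq lists both. They run from 250 bases before to 50 bases after each start on GRCr8, with capitals as above.
Fgf12, chr11:85501697-85501996, plus strand: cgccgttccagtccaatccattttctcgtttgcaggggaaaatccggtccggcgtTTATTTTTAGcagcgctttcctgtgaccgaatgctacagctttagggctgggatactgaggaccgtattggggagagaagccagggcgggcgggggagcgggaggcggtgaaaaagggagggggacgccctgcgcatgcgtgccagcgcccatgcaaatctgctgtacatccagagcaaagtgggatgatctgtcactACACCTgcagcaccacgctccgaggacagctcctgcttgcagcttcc
Fgf12, chr11:85801508-85801807, plus strand: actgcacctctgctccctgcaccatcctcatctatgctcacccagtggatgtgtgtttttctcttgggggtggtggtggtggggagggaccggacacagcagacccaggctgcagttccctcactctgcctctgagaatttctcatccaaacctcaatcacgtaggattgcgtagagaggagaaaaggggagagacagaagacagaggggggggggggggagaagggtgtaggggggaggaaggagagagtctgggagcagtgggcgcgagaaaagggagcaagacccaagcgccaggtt
The first window held a MEF2 site from -195 to -186 and, on the minus strand, a T-box core from 4 to 9 that overlaps an E box. The second window held none of the motifs searched. Their GC contents were 58.7% and 58.3%, beside a median of 51.7% over all RefSeq windows.

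Fgf13, another factor of this branch, also binds sodium channels and, in neurons, microtubules. Its probe set, 1368114_at, read 8.93, 8.99, 8.83 and 8.70 in the atrial pools, against 8.35, 8.49, 8.48 and 8.52 in the ventricular pools. All atrial pools were above all ventricular pools. The difference was 0.40 ± 0.08 (SE, n = 4 pools each, limma adjusted p = 0.0017), or 1.32 fold. The Fgf12 difference at 1377655_at was larger than that of Fgf13 by 0.67 (exact permutation test, two-sided, adjusted p = 0.0457, n = 4 pools each). It was larger by 0.69 without atrial pool 1 and by 0.72 without atrial pool 4. Neither gap was called (3 against 4 pools, adjusted p = 0.0571 in each case, exact test). The gap did not shrink when either pool was left out, and its adjusted p depends also on the other pairs compared.

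The remaining intracellular factors were near the low end in both tissues. Fgf11 read 3.24, 3.18, 3.10 and 3.13 in the atrial pools, against 3.17, 3.28, 3.14 and 3.14 in the ventricular pools, a difference of -0.02 (limma adjusted p = 0.83). Fgf14 at its brighter probe set, 1370581_at, read 3.11, 3.02, 2.80 and 3.22 in the atrial pools, against 2.91, 2.84, 2.89 and 2.89 in the ventricular pools. Its difference of 0.15 was not called (limma adjusted p = 0.19), but passed under cyclic loess and quantile scaling and without atrial pool 3 (0.23 each, limma adjusted p = 0.047, 0.048 and 0.032). Of the binding partners of these factors, 7 of 8 listed genes were measured, 0 were higher and 1 was lower in the atria. That gene was Scn3a, a sodium channel of the nervous system (-0.80, limma adjusted p = 9.7e-05), with an atrial mean under 4. Scn2a, Scn4a, Scn8a and Scn9a were under 4 in both tissues, so they could show little of a difference. The main sodium channel of heart muscle was not analysed here.

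Fgfr1, the FGF receptor that in rodents predominates in heart muscle, has 2 probe sets. At 1372447_at the atrial pools read 8.23, 8.14, 8.29 and 8.47, against 8.06, 7.91, 8.04 and 8.09 in the ventricular pools. The tissues did not overlap, although the lowest atrial pool, at 8.14, and the highest ventricular pool, at 8.09, were close. The difference of 0.25 ± 0.08 (SE, n = 4 pools each) was called higher (limma adjusted p = 0.027). This call was lost with cyclic loess scaling (adjusted p = 0.11), with quantile scaling (0.16) and without any one of atrial pool 3, ventricular pool 2 or ventricular pool 3 (0.059, 0.076 and 0.054).

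At the second Fgfr1 probe set, 1387498_a_at, the atrial pools read 7.28, 7.25, 7.24 and 7.28, against 7.27, 7.25, 7.22 and 7.19 in the ventricular pools. All 8 pools lay between 7.19 and 7.28, and the difference of 0.03 was not called (limma adjusted p = 0.7), with a 95% interval from -0.09 to 0.15. The tissue differences of the 2 probe sets were not separated (gap 0.22, exact permutation test, two-sided, adjusted p = 0.0653, n = 4 pools each).

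The other FGF receptors differed among themselves. Fgfr3, known for its control of bone growth, was lower in the atria at its brighter probe set, 1384056_at, with 4.72, 4.92, 4.87 and 5.20 in the atrial pools, against 5.61, 5.92, 5.80 and 5.96 in the ventricular pools. The tissues did not overlap and the difference was -0.89 ± 0.11 (SE, n = 4 pools each, limma adjusted p = 8.7e-05), or 1.86 fold. Its dimmer probe set, 1369373_at, differed by -0.32 and was not called (limma adjusted p = 0.054). Fgfr2, the receptor for Fgf7 and Fgf10, was called higher at its brightest probe set, 1373829_at (0.24, limma adjusted p = 0.0079), and lower at 1388168_a_at (-0.36, limma adjusted p = 0.012). The Fgfr2 probe sets were all close to or under 4 and gave no single direction. Fgfr4 (-0.23, limma adjusted p = 0.022) was under 4 in both tissues, and its call was lost under cyclic loess and quantile scaling and without any one of atrial pool 2, ventricular pool 1 or ventricular pool 2 (limma adjusted p = 0.055, 0.063 and 0.06). Fgfrl1, a receptor-like protein without a kinase, differed by -0.07 (limma adjusted p = 0.62).

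Beyond the members, 88 genes of the FGF pathway were listed and 75 were measured, 1 probe set per gene. Of these, 17 were higher and 21 were lower in the atria and 37 were not called, near the 22.5% of all genes higher and 22.5% lower, with a median difference of -0.03 against -0.04 over all genes. These shares are the background of each list described here. Of 11 other measured ligands, 0 were higher and 1 was lower. That one was Fgf17, of the same subfamily as Fgf18 (-0.25, limma adjusted p = 0.026), with both means under 4. Its call was lost under cyclic loess and quantile scaling and without any one of atrial pools 1 and 2 and ventricular pools 1 and 3 (limma adjusted p of 0.062 to 0.074). All of these other ligands but Fgf21 had an atrial mean under 4, and most were under it in both tissues. The count of called ligands therefore says little about whether they differ.

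Molecules that meet FGFs outside the cell or bind their receptors held the largest difference of the pathway. Of 11 heparan sulfate proteoglycans, 4 were higher and 6 were lower in the atria, with a median of -0.25. Gpc3, a glypican of the cell surface, read 8.22, 8.15, 8.15 and 7.77 in the atrial pools, against 5.03, 4.96, 5.14 and 4.85 in the ventricular pools. It was the highest of its list in the atria relative to the ventricles, at 3.08 ± 0.10 (SE, n = 4 pools each, limma adjusted p = 1.1e-08) or 8.44 fold, although its dimmer probe set was under 4 and not called. Gpc1, a second glypican, went the other way, with 9.01, 9.03, 8.82 and 8.90 in the atrial pools, against 9.98, 9.87, 10.00 and 10.03 in the ventricular pools. Its difference was -1.03 (limma adjusted p = 1.2e-06), or 2.04 fold.

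Of 12 enzymes that build or trim heparan sulfate, 7 were higher and 2 were lower in the atria, with a median of 0.33. The largest were Hs3st1, a sulfotransferase, at 0.74 (limma adjusted p = 0.00093), and Ndst2, which removes acetyl groups and adds sulfate, at -0.26 (limma adjusted p = 0.027). The Ndst2 call was lost without any one of 6 of the 8 pools, all but atrial pools 3 and 4 (limma adjusted p of 0.052 to 0.076). Of 5 FGF binding and FLRT proteins, 3 were higher and 0 were lower. Among the 3 was Flrt1, with both means under 4. Flrt2, a membrane protein of a family that binds FGF receptors, read 6.10, 5.53, 5.64 and 5.14 in the atrial pools, against 3.76, 3.82, 3.92 and 3.84 in the ventricular pools. The atrial pools were all higher, by 1.77 (limma adjusted p = 9.5e-06), at least 3.4 fold since the ventricular mean was under 4.

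The adaptor and inhibitor lists held more genes lower than higher in the atria. Of 12 measured receptor adaptors and RAS-MAPK genes, 1 was higher, Frs2, the docking protein of FGF receptors (0.47, limma adjusted p = 0.0023). Another 4 were lower, led by Sos1, which loads RAS with GTP (-0.47, limma adjusted p = 0.00017). Of 7 measured feedback inhibitors of the pathway, 0 were higher and 5 were lower in the atria, with a median of -0.31, where 22.5% of all genes were higher and 22.5% lower. Spry1, a Sprouty protein that damps receptor signaling, read 6.18, 6.17, 6.14 and 6.20 in the atrial pools, against 7.03, 7.06, 7.17 and 7.13 in the ventricular pools. The tissues were far apart relative to the spread of the pools, with a difference of -0.92 ± 0.06 (SE, n = 4 pools each, limma adjusted p = 7.4e-07), or 1.9 fold.

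The ETS transcription factors that FGF signaling raises in other tissues did not move together. Etv1 read 8.72, 8.89, 8.85 and 8.50 in the atrial pools, against 6.63, 6.62, 6.67 and 6.66 in the ventricular pools. It was higher in the atria by 2.09 ± 0.08 (SE, n = 4 pools each, limma adjusted p = 3.5e-08), or 4.27 fold, at this brightest probe set. Its other probe sets were also called higher, by 2.62, 2.59, 2.49 and, with both means under 4, 1.09. The other 2 genes of that list were under 4 in both tissues and were not called at their brighter probe sets. The dimmer Etv4 probe set, also under 4, was called lower (-0.29, limma adjusted p = 0.026).

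**Figure D3:**
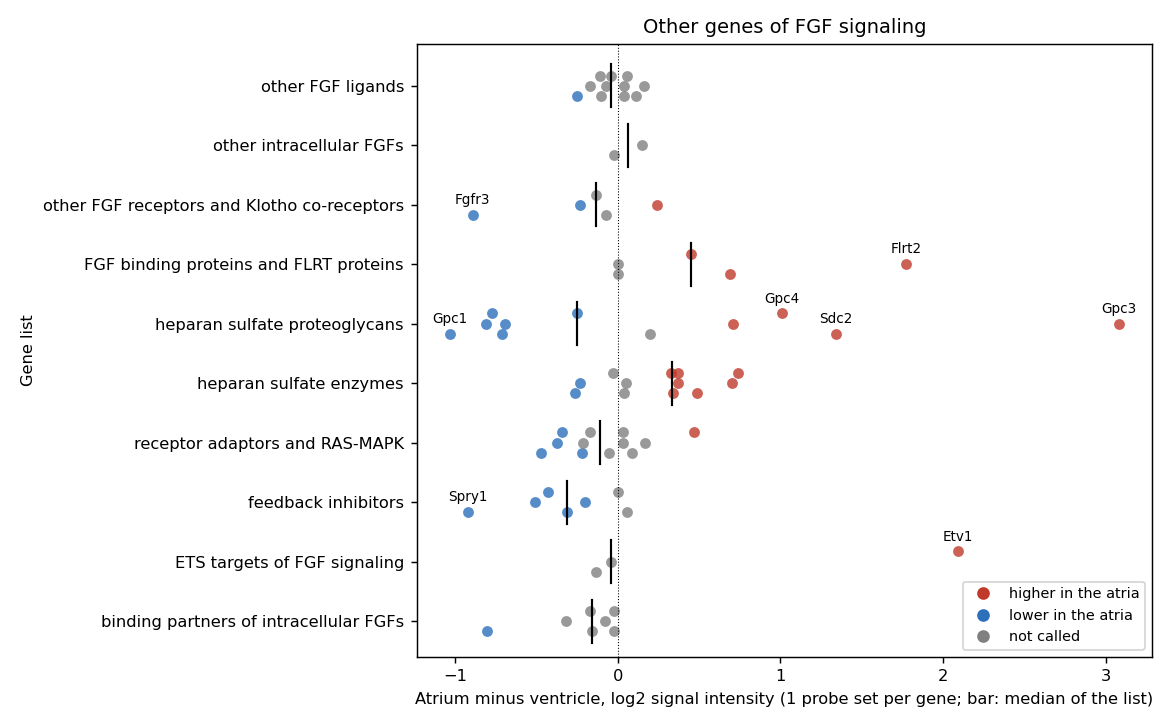
Atrial mean minus ventricular mean in log2 signal intensity (horizontal axis) for the other genes of FGF signaling by list (vertical axis), 1 point per gene, red for higher in the atria, blue for lower and grey for not called, with a black bar at the median of each list. Gpc3, Etv1 and Flrt2 lie farthest to the right at 3.08, 2.09 and 1.77, and the feedback inhibitors hold 5 lower genes and 0 higher ones.

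Cell type markers differed between the tissues alongside the FGF genes. The array medians lay between 4.795 and 4.808, and all 4 atrial cardiocyte markers were higher and all 4 ventricular cardiocyte markers were lower in the atria. The ventricular markers averaged 7.51, 5.49, 6.09 and 8.08 in the atrial pools, against 10.90 to 10.96 in the ventricular pools. Fibroblast markers were higher in the atria for 7 of 7 genes (mean 10.32 to 10.46 in the atria, 9.98 to 10.13 in the ventricles), and mesothelium and epicardium markers for 5 of 6 (mean 7.17 to 8.12 in the atria, 4.11 to 4.42 in the ventricles). The sixth mesothelium and epicardium marker, Wt1, was lower in the atria (-0.38, limma adjusted p = 0.029). Adipocyte markers were higher for 3 of 5 genes and spread widely among the atrial pools, at 5.46, 6.88, 6.28 and 8.10, against 4.80 to 5.05 in the ventricular pools. Endothelial markers were lower in the atria for 4 of 6 genes and higher for 1 (7.94 to 8.04 in the atria, 8.44 to 8.60 in the ventricles). Pericyte and smooth muscle markers were lower for 8 of 8 (7.07 to 7.17 in the atria, 7.98 to 8.04 in the ventricles). Of the remaining lists, endocardium had 1 of 2 genes higher, neurons and Schwann cells had 3 higher and 1 lower of 7, and leukocytes had 0 higher and 3 lower of 5. The part of these cell types in the FGF differences was not tested.

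Atrial pools differed in ventricular marker signal. Myl2, the ventricular myosin light chain, read 10.48, 4.32, 6.82 and 11.30 in the atrial pools, against 13.23 to 13.30 in the ventricular pools. Pool 4 was the highest atrial pool for each of the 4 ventricular markers, and the other 3 atrial pools had no common order over them. In every other marker list too, pool 4 had the highest or the lowest atrial mean. It was the highest for adipocytes (8.10) and the lowest for mesothelium and epicardium (7.17) and for atrial cardiocytes (13.11). Atrial pool 4 was also the lowest atrial pool at all 3 Fgf1 probe sets, at both called Fgf12 probe sets and at Fgf13. It was the highest atrial pool at Fgf16 (4.14), at both Fgf9 probe sets (3.92 and 4.26) and at Fgfr1 1372447_at (8.47). The same held at Fgf7 (3.83) and Fgf10 (3.33). Of these, all but Fgfr1 had an atrial mean under 4. Pool 4 thus lay nearer to the ventricular pools at Fgf16, Fgf9, Fgf13 and the called Fgf12 probe sets. At Fgf1 1393314_at and Fgfr1 1372447_at it lay farther from them. Without atrial pools 1 and 4 the differences were -2.69 and -2.00 for Fgf9, -2.72 for Fgf16, 1.21 and 1.44 for the called Fgf12 probe sets, 0.45 for Fgf13 and -0.33 for Fgf1, and all of these were still called by limma. Fgf18 (-0.38, limma adjusted p = 0.057) and Fgfr1 at 1372447_at (0.19, limma adjusted p = 0.1) were then no longer called, which left 3 probe sets higher and 4 lower.

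Profiles most like those of Fgf16, Fgf9 and Fgf12 were sought among all named genes by the root mean square difference between log2 profiles over the 8 arrays, each centred on its own mean. For Fgf16 the closest were Acsl6, a long-chain acyl-CoA synthetase (0.106), Efnb3, a membrane-bound ligand of Eph receptors (0.123), and Rimbp2, a protein of the presynaptic active zone in neurons (0.150). For Fgf9 they were Fhl2 at 1371951_at, a LIM domain protein of heart muscle (0.132), Slc26a10 (0.137) and again Efnb3 (0.163). For Fgf12 they were Ccdc107 at 1379826_at (0.071), Aff2, a nuclear protein (0.076), and Hsph1 at 1385620_at, a heat shock protein (0.082). Rimbp2 (at 1397788_at), Fhl2, Ccdc107 and Hsph1 were matched at a probe set other than the brightest of the gene. Because the arrays fall into the same tissues for every gene, a small value says mainly that the tissue difference was of like size. The Efnb3 difference was -2.71, beside -2.73 for Fgf16 and -2.56 for Fgf9.

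**Figure D4:**
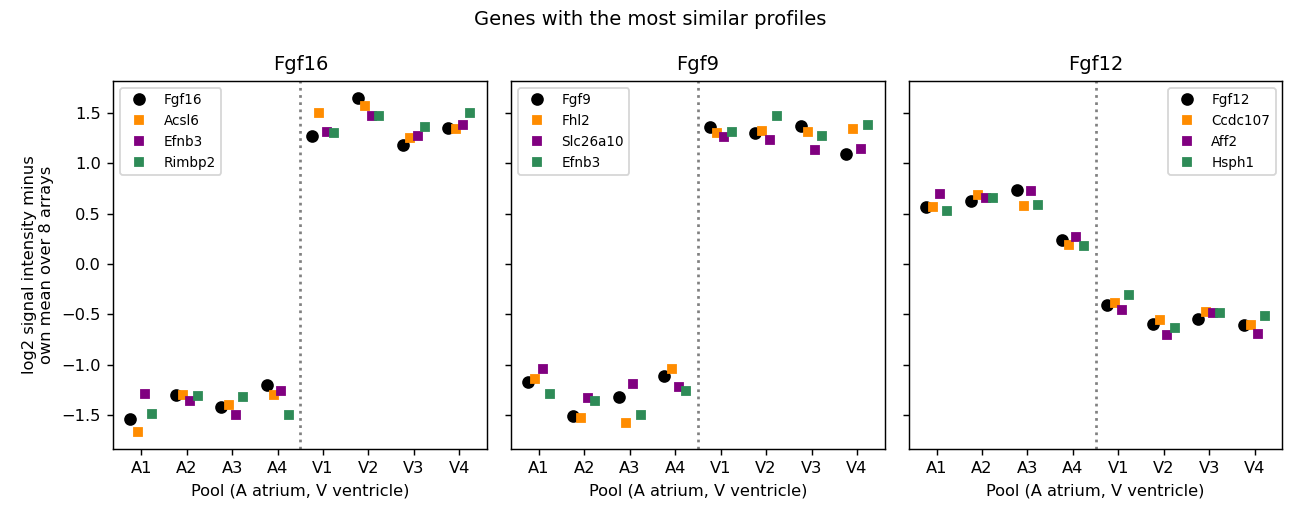
Log2 signal intensity minus each probe set's own mean over the 8 arrays (vertical axis) in the atrial pools A1 to A4 and the ventricular pools V1 to V4 (horizontal axis) for Fgf16, Fgf9 and Fgf12 (black circles) and the 3 genes with the most similar profiles to each (coloured squares). The atrial points lie below the ventricular ones for Fgf16 and Fgf9 and above them for Fgf12.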

How the data were processed

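RNA from 4 atrial and 4 ventricular pools was measured on Affymetrix rat genome arrays, 1 array per pool, from 10 µg of total RNA each. The deposited values are log2 signal intensities that the authors made with RMA (background adjustment, quantile normalization and summary per probe set); the version is not given in the sources used here. RMA draws low values together, which understates folds near the low end. The values ran from 1.90 to 13.77 and were used without further scaling. The number of arrays limits the precision, with a median SD between pools of 0.117 in the atria and 0.0986 in the ventricles.

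Differences were fitted with limma 3.58.1 in R 4.3.3 (lmFit and eBayes, no block) with Benjamini-Hochberg adjustment over 31042 probe sets, and called at an adjusted p under 0.05. The study's thresholds were an adjusted p under 0.0001 and a fold of 1.8 (0.848 on the log2 scale). Pairs of probe sets were compared by an exact permutation test over arrays. Gene symbols came from the platform annotation, with 20826 probe sets carrying 1 symbol, 436 several and 9780 none, and 20758 symbols were brought up to date through the gene ID. Sequences came from RefSeq (GRCr8), which held windows for 9 of the 10 genes.

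Every member probe set is named, with the called gene of largest difference in each direction of each list. Also named are Fgf20, Fgf11 and Fgf14, the remaining receptors, the 3 genes most alike in profile and cell type markers. The members, lists and tests were chosen with earlier results of these data known. Alternatives were other tests (trended and robust limma, SAM), a replicate block, other scalings, a filter on dim probe sets, other fold criteria, gene means and leaving out pools. Figures were drawn with matplotlib 3.10.9.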

Additional observations from a re-analysis of the deposited data

Results flagged for a closer look

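In 4 of 68 groups examined (34 probe sets in each tissue), 1 pool stood apart from the other 3 by Dixon's criterion at 95%, where chance marks about 1 in 20 groups. Atrial pool 4 was apart in 3 of them. It read 9.32 at Fgf1 1393314_at, where the other atrial pools read 9.49 to 9.51, and 4.26 at Fgf9 1370747_at, where they read 3.61 to 3.66. It also read 7.77 at Gpc3 1368395_at, where they read 8.15 to 8.22. Ventricular pool 4 read 3.71 at Fgf7 1369884_at, where the other ventricular pools read 4.04 to 4.10.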

How the results depend on the processing

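Of the values of the 16 member probe sets under up to 16 alternatives each, 233 kept their direction and side of the threshold, 7 lost the call, 3 gained one and 8 changed sign, all 8 at uncalled probe sets. Signs changed under cyclic loess and quantile scaling for Fgf10 (0.06 and 0.06), Fgf12 1370233_at (0.04 and 0.01), Fgfr1 1387498_a_at (-0.02 and -0.04). With pools left out, Fgf10 ran from -0.07 to 0.02, and changed sign without ventricular pool 2 or ventricular pool 3. Fgf11, outside those 16 probe sets, was 0.06 and 0.07 under these scalings and ran from -0.05 to 0.01 with pools left out. SAM added calls for Fgf2 (q = 0.048) and Fgf7 (q = 0.024) and called 9756 probe sets lower over the array, against 6245 by limma. At the study's thresholds 2 member probe sets were higher, and 1 to 2 were with pools left out (1 without ventricular pool 2). With a fold of at least 3 in place of 1.8, 0 were higher. Of 8 pairs of probe sets, 5 differed, each at the smallest p of 0.0286 and an adjusted p of 0.0457 (exact permutation test). Of these, 2 involve values at the low end and are not read. The adjustment counts those 2, so the calls of the other pairs rest partly on them. An adjustment without them was not run. With pools left out, 0 to 6 pairs differed. None did without atrial pool 1 or atrial pool 4, with adjusted p of 0.0571 to 0.0914 for the lost pairs (same test). The mean of its probe sets gave Fgfr1 0.14 (limma adjusted p = 0.054). The cause of these changes was not tested. With the replicate number as a block, all 16 member values stayed on the same side, and 5409 probe sets were higher and 5514 lower. Deviations from the tissue mean were correlated between atrial and ventricular pools. The correlations were -0.188 to 0.155 for pools of the same number and -0.132 to 0.278 for other pools. In each tissue 2 of the 4 pools correlated best with their own number. So few pools cannot decide whether the numbers pair them. Leaving out atrial pools 1 and 4 together was chosen after seeing the data.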
